A study of Mus musculus with 44 samples.

Results

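Mast cells are tissue-resident immune cells of the dermis that store proteases, histamine and proteoglycans in granules and release them when their surface receptors are engaged. They depend on the receptor tyrosine kinase Kit and on its ligand for survival, and they bind IgE through a receptor made of an alpha chain (Fcer1a), a beta chain (Ms4a2) and a shared gamma chain. Connective tissue mast cells of mouse skin are known for chymases, tryptases and a carboxypeptidase, and for receptors of the Mrgpr family that respond to basic peptides and drugs. The 10 genes described here were taken as a list of such proteases and receptors: the carboxypeptidase Cpa3, the chymases Cma1 and Mcpt4, the tryptases Tpsb2 and Tpsab1, and the receptors Kit, Ms4a2, Fcer1a, Mrgprb1 and Mrgprb2. All 10 were found by symbol among the 43411 genes of the deposited table, and all 10 had a mean normalized count above 3, which was required for testing.

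Expression was measured by RNA sequencing of part of each back skin biopsy of 44 wild-type female C57Bl/6 mice, 8 weeks old at the start. The saline group held 10 mice, and groups of 10 mice each received bleomycin for 2 or 4 weeks as daily subcutaneous injections of 100 µL at 1 U/mL per the labels, a model of the dermal fibrosis of systemic sclerosis. The sources of the study differ on the concentration, and a legend gives a lower one. The recovery groups received bleomycin for 4 weeks and were then left untreated for 6 weeks (6 mice) or 10 weeks (8 mice). Mice of the recovery groups were therefore older at harvest than mice given bleomycin only, and 4-week bleomycin mice were older than 2-week mice. The harvest age of the saline mice is not given in the sources used here. Age cannot be told apart from recovery or from the length of treatment, and its part in comparisons with saline is unknown. In whole skin, more mast cells and more RNA per mast cell cannot be told apart.

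The mice held between 8509094 and 15285577 reads on genes. Mouse 2 of the 2-week bleomycin group and saline mouse 1 had the lowest median correlations to the mice of their own group, at 0.938 and 0.942, and the next lowest mice were at 0.947, 0.949 and 0.954, so that no gap set them apart by this measure. They were singled out in an earlier analysis of these data, and values without them are given as values in 42 mice. Markers of keratinocytes and fibroblasts were high in every mouse (summed normalized counts of 183881 to 356401), as were markers of skeletal muscle (75527 to 319024), a tissue that lies beneath the dermis.

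The promoters of the members are shown first because a short DNA word bound by GATA factors, among them the mast cell regulator Gata2, recurred in them. Of the 10 members, 8 had an entry in the RefSeq promoter table (GRCm38.p6), and Tpsb2 and Tpsab1 had none. The promoter of Mrgprb1 had an entry and is not printed here. Each sequence below is the 120 bases before the start site, 5′ to 3′ on the strand of the gene, with the words AGATAA and AGATAG, and also TGATAA and TGATAG, in capitals where they occur on either strand.
Cpa3: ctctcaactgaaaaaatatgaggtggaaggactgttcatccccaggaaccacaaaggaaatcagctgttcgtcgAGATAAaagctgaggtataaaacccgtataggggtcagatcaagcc
Cma1: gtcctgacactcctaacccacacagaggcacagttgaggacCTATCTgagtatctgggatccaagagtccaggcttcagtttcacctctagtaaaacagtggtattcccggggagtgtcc
Mcpt4: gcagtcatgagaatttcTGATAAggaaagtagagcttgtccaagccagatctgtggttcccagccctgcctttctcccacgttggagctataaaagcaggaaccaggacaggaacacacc
Ms4a2: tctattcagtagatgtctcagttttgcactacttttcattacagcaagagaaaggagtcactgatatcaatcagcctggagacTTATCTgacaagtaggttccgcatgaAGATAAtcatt
Fcer1a: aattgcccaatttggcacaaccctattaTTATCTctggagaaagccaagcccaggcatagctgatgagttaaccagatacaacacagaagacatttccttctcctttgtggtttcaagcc
Mrgprb2: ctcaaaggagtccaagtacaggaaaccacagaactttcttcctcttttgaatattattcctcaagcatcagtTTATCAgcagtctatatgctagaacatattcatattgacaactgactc
Kit: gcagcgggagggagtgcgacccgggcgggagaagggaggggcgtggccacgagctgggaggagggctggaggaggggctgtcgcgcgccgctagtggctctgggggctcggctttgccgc
These windows lie at chr3:20242182-20242301 (Cpa3, minus strand), chr14:55944676-55944795 (Cma1, minus), chr14:56062311-56062430 (Mcpt4, minus), chr19:11623720-11623839 (Ms4a2, minus), chr1:173227230-173227349 (Fcer1a, minus), chr7:48558087-48558206 (Mrgprb2, minus) and chr5:75574867-75574986 (Kit, plus, the first of the start sites listed for it).

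In the 250 bases before the start site, 7 of these 8 members held at least 1 of the 4 words, and 29.7% of 27025 genes with a promoter entry did. Ms4a2 held 3 such words and Mrgprb1 held 2, while the other 5 genes held 1 each. Kit, whose promoter shown above is rich in G and C, held none in its windows. The words CACGTG and CATGTG, bound by Mitf-type factors, were found in Fcer1a alone among the 8 (19.8% of genes), and the wider pattern CANNTG, which contains them, was found in Fcer1a, Cpa3, Cma1, Mrgprb1 and Mrgprb2 (69.3% of genes). The AP-1 word TGAGTCA was found in Mrgprb1 and Mrgprb2 (5.16% of genes). A match describes the letters of the window and was not tested as a binding site. The shares over all genes were not matched for base composition, and genes of 1 family, such as Mrgprb1 and Mrgprb2, were counted as separate genes. The part of either in these counts was not tested.

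**Figure D1:**
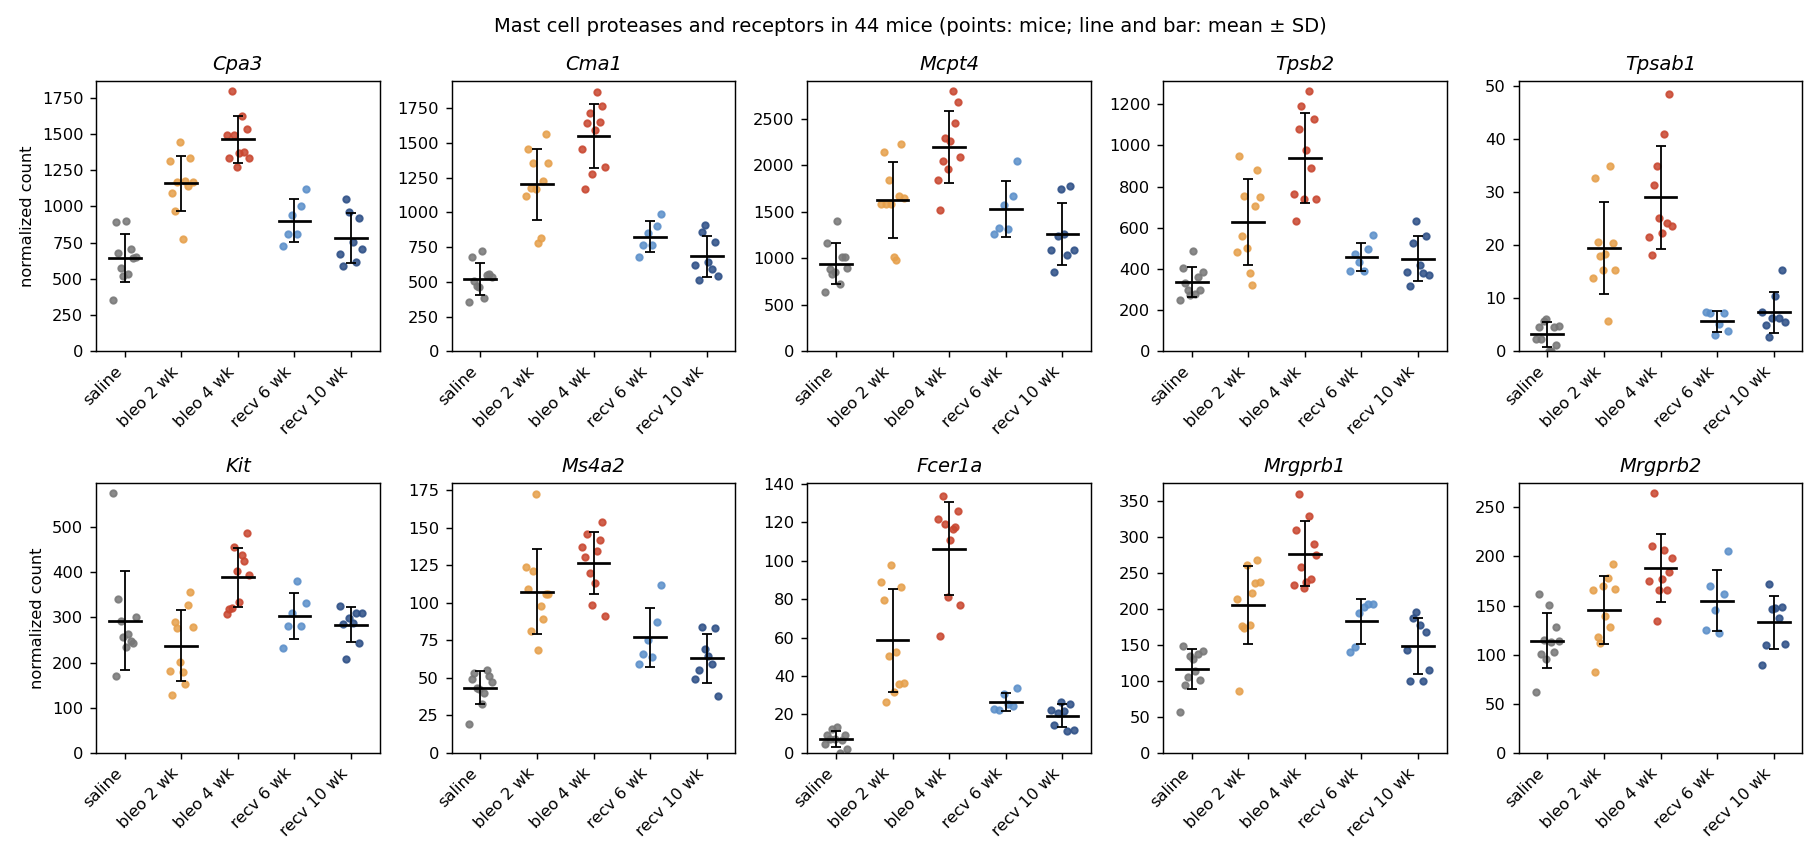
Normalized count of each of the 10 members (y axis, linear, from 0) in the 5 groups (x axis), with a point for each mouse and the mean ± SD of each group. In 8 of the panels every point of the 4-week bleomycin group lies above every saline point, and in the Kit panel the highest point is a saline mouse.

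Levels were compared between genes per kilobase of exon, as normalized counts divided by the length of the gene model. In saline skin the chymase Mcpt4 had the highest level, at 851 ± 200.4 per kilobase (SD, n = 10). Cma1 at 478 ± 107 and Cpa3 at 425 ± 109.7 per kilobase followed and did not differ beyond their spread, and Tpsb2 stood at 211 ± 46.2. The receptors were lower, from 55.1 ± 13.6 per kilobase for Mrgprb2 through 32.8 ± 12.3 for Kit, 27.9 ± 6.66 for Mrgprb1 and 15.4 ± 3.86 for Ms4a2 to 7.22 ± 4.22 for Fcer1a. Kit and Mrgprb1 did not differ beyond their spread. Tpsab1 was the lowest of the 10, at 1.5 ± 1.1 per kilobase. With 4 weeks of bleomycin the order of the proteases was the same, whereas Fcer1a, at 107 ± 24.5 per kilobase, stood first among the receptors and its spread overlapped that of Mrgprb2 at 90.7 ± 16.8.

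To ask how the members changed with bleomycin, each treated group was compared with saline, and a gene was called when its fold change exceeded 1.5 in either direction and its adjusted p-value was below 0.05. Tests were made with limma over 17037 genes. Changes are differences of log2(normalized count + 1), given with their standard errors. After 2 weeks of bleomycin 8 members rose, all but Kit and Mrgprb2, where 9.3% of all genes tested rose, and 0 fell, where 7.43% did. After 4 weeks 9 members rose, all but Kit, where 10.5% of all genes rose, and 0 fell (7.37%). All 10 treated mice lay above all 10 saline mice for 3 members at 2 weeks (Cma1, Ms4a2 and Fcer1a, 3.44% of all genes) and for 8 members at 4 weeks (all but Kit and Mrgprb2, 4.31% of all genes). The median log2 fold change of the 10 members was 0.86 at 2 weeks and 1.37 at 4 weeks, beside 0.0025 and -0.00065 over all genes.

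**Figure D2:**
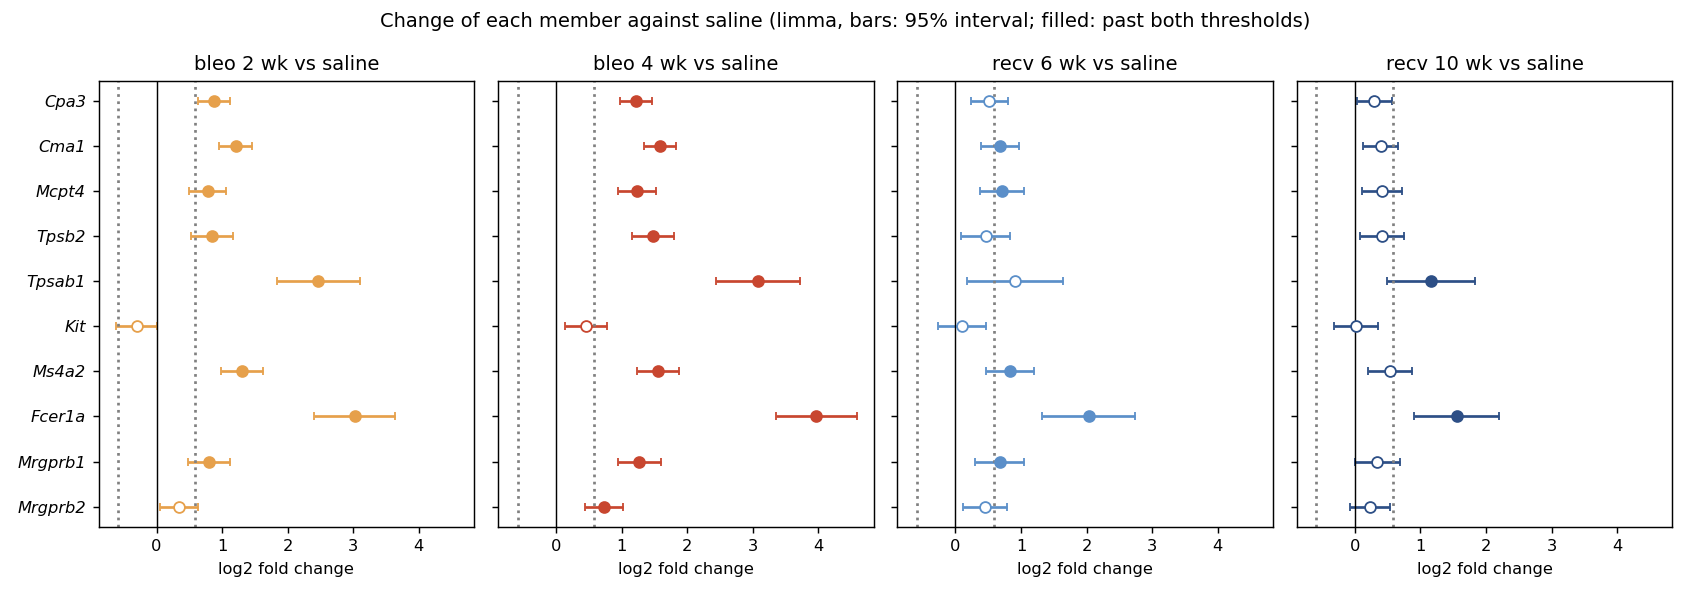
Log2 fold change of each member against saline (x axis) in the 2 bleomycin and 2 recovery groups, with the 95% confidence interval from limma as a bar, filled symbols for genes past both thresholds and dotted lines at a fold change of 1.5. The changes are largest at 4 weeks of bleomycin, where Kit alone has an open symbol, and 2 symbols are filled at 10 weeks of recovery.

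Cpa3 (chr3:20215620-20242181), which encodes the carboxypeptidase that trims peptides after the chymases have cut them, ranged over 352 to 897 (median 648) normalized counts in saline. It ranged over 773 to 1444 (median 1171) at 2 weeks and 1273 to 1795 (median 1434) at 4 weeks of bleomycin. Every mouse at 4 weeks lay above every saline mouse, as did 9 of 10 at 2 weeks. Cpa3 rose by 0.87 ± 0.12 on the log2 scale at 2 weeks (adjusted p = 1.92e-07) and by 1.22 ± 0.12 at 4 weeks (adjusted p = 6.48e-11), the latter a 2.33-fold rise.

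The chymases cleave proteins after aromatic residues, and Mcpt4 is regarded as the nearest functional counterpart of human chymase. Cma1 (chr14:55941451-55944675) ranged over 354 to 724 (median 521) normalized counts in saline, 783 to 1562 (median 1202) at 2 weeks and 1170.5 to 1871 (median 1619.7) at 4 weeks. The saline mice did not overlap either bleomycin group. It rose by 1.20 ± 0.12 on the log2 scale at 2 weeks (adjusted p = 1.17e-10) and by 1.59 ± 0.12 at 4 weeks (adjusted p = 4.79e-14). Mcpt4 (chr14:56059629-56062313) ranged over 637 to 1407 (median 892) in saline, 979 to 2234 (median 1620.4) at 2 weeks and 1519 to 2801 (median 2179.9) at 4 weeks. Its saline and 2-week mice overlapped, and its saline and 4-week mice did not. It rose 1.71-fold and then 2.35-fold (adjusted p = 2.46e-05 and 2.48e-09). Of the stretches of 50 bases in the Mcpt4 transcripts, 5.48% also occur in Cma2 or Mcpt9, so a share of its reads could have been split. For Cma1 5.38% also occur in Gm48934, and for Ms4a2 2.10% also occur in Ms4a4b. Cma2 had at most 8 reads in any mouse and Mcpt9 at most 1.

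The tryptases are trypsin-like proteases held in granules on heparin. Tpsb2 (chr17:25366305-25369098) ranged over 247 to 487 (median 314) normalized counts in saline, 323 to 947 (median 633) at 2 weeks and 633 to 1263 (median 934) at 4 weeks. The 2-week mice were widely spread and overlapped both other groups, while no 4-week mouse overlapped saline. The rise was 1.80-fold at 2 weeks (adjusted p = 3.18e-05) and 2.78-fold at 4 weeks (adjusted p = 3.90e-10). Tpsab1 (chr17:25343245-25345562) encodes a second tryptase whose protein is known to be missing from the C57BL/6 strain. Its transcript was scarce, at 0 to 6.03 (median 3.48) normalized counts in saline, where 2 of 10 mice had no read and none had more than 5 reads. It ranged over 5.73 to 34.9 (median 18.1) at 2 weeks and 18.2 to 48.4 (median 24.6) at 4 weeks. Every mouse at 4 weeks lay above every saline mouse. Its log2 fold change was 2.47 ± 0.31 at 2 weeks (adjusted p = 2.46e-08) and 3.08 ± 0.31 at 4 weeks (adjusted p = 9.98e-11). With saline mice near the floor of 3 reads the size of this change depended on the pseudocount, and at 4 weeks it was 3.98 with a pseudocount of 0.1 and 2.07 with a pseudocount of 5.

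The IgE receptor chains showed the largest rise among the receptors. Fcer1a (chr1:173221284-173227214), the chain that holds IgE, ranged over 0 to 13.3 (median 7.17) normalized counts in saline, with 0 to 11 reads per mouse. It ranged over 26.7 to 97.6 (median 51.6) at 2 weeks and 60.9 to 134 (median 117) at 4 weeks. All 20 bleomycin mice lay above all 10 saline mice. The log2 fold change was 3.02 ± 0.30 at 2 weeks (adjusted p = 6.75e-11) and 3.97 ± 0.30 at 4 weeks (adjusted p = 2.75e-14), the largest of the 10 members at both times. It ranked 19 by log2 fold change among the 17037 genes at 4 weeks, and was 4.46 and 3.25 with pseudocounts of 0.1 and 5. Ms4a2 (chr19:11615523-11623719), the chain that amplifies the signal, ranged over 19.1 to 55.0 (median 45.1) in saline, 68.2 to 172 (median 106) at 2 weeks and 90.9 to 154 (median 132) at 4 weeks. Its saline mice overlapped neither bleomycin group. It rose 2.46-fold at 2 weeks and 2.95-fold at 4 weeks (adjusted p = 8.89e-09 and 9.34e-11).

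Mrgprb1 and Mrgprb2 are neighbouring genes, and Mrgprb2 encodes the mouse mast cell receptor for basic secretagogues. Mrgprb1 (chr7:48444113-48456342) ranged over 57.2 to 148 (median 122) normalized counts in saline, 85.8 to 268 (median 218) at 2 weeks and 229 to 361 (median 267) at 4 weeks. It rose 1.74-fold and then 2.41-fold (adjusted p = 0.000106 and 2.37e-08), with the 4-week mice all above saline. Mrgprb2 (chr7:48550965-48558086) moved less, from 62.0 to 162 (median 113) in saline to 81.9 to 192 (median 153) at 2 weeks and 135 to 265 (median 181) at 4 weeks. Its groups overlapped at both times. Its 2-week value was 1.27-fold that of saline and did not pass the test (adjusted p = 0.0591), and at 4 weeks it rose 1.67-fold (adjusted p = 6.72e-05).

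Kit (chr5:75574916-75656722), the receptor for stem cell factor that mast cells share with melanocytes, was the member that was not called against saline in any group. It ranged over 170.1 to 576 (median 259) normalized counts in saline, 129 to 357 (median 239) at 2 weeks and 306 to 487 (median 398) at 4 weeks, and the groups overlapped. Its log2 fold change was -0.31 ± 0.16 at 2 weeks (adjusted p = 0.13) and 0.46 ± 0.16 at 4 weeks (adjusted p = 0.0188, below the fold threshold). Between the bleomycin groups Kit was 1.70-fold higher at 4 than at 2 weeks (adjusted p = 0.00248). The highest saline value was that of mouse 1, and without that mouse and mouse 2 of the 2-week group the 2-week difference from saline shrank to -0.10. Of 8 melanocyte markers 7 fell at 2 weeks (7.43% of all genes) and 0 at 4 weeks (7.37%). Sox10 rose at 4 weeks and in both recovery groups, where the other 7 markers were not called. With group means taken off, Sox10 correlated with the mean of the members at r = 0.26. For the other 7 markers this r ran from -0.46 (Tyr) to -0.37 (Mlana), so Sox10 went apart from them. Median log2 fold changes of the 8 markers were -1.76 and -0.37 at 2 and 4 weeks of bleomycin. They were -1.12 and -0.37 at 6 and 10 weeks of recovery, where Kit was at 0.10 and 0.01. Over the 44 mice with group means taken off, Kit correlated with the mean of these markers at r = 0.61 (0.50 in 42 mice) and Cpa3 at r = -0.61 (-0.51 in 42 mice). Growing hair follicle markers also moved, since 7 of 7 fell at both bleomycin times. Their summed normalized counts ranged widely in saline, over 2047 to 209312 (median 39422), with medians of 155 at 2 weeks and 175 at 4 weeks. With group means taken off, their mean correlated with Kit at r = 0.43, Cpa3 at -0.44, Mcpt4 at -0.38 and Cma1 at -0.37. The remaining members lay between -0.33 (Mrgprb2) and 0.04 (Tpsab1). In 42 mice r was 0.38 for Kit and -0.38 for Cpa3. The part of either cell type in the values of Kit or of the other members was not tested.

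Direct comparison of the bleomycin groups called 2 members higher at 4 than at 2 weeks, Kit and Tpsb2, where 1.49% of all genes were higher. Tpsb2 was 1.54-fold higher (adjusted p = 0.0141), and this call was lost when any 1 of 4 mice was left out, with log2 fold changes down to 0.53. Fcer1a was 1.93-fold its 2-week level and narrowly missed the test (adjusted p = 0.0545), and it was called when any 1 of 8 mice was left out and in 42 mice, where its log2 fold change was 1.01. The remaining 7 members had log2 differences between 0.26 and 0.62 and were not called.

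Recovery was examined against both the 4-week bleomycin group and saline. These comparisons share mice, so their values are given side by side. After 6 weeks of recovery 7 members were lower than at 4 weeks of bleomycin, where 7.14% of all genes were lower, and the exceptions were Mcpt4, Kit and Mrgprb2. The call of Mrgprb1 was lost when any 1 of 5 mice was left out, with log2 fold changes of -0.58 to -0.52, and with quantile normalization. After 10 weeks 8 were lower (9.1% of all genes), with Kit and Mrgprb2 as the exceptions. Some exceptions missed the fold threshold only: Mcpt4 at 6 weeks (0.70-fold, limma, adjusted p = 0.0168), and Kit and Mrgprb2 at 10 weeks (0.73-fold and 0.70-fold, adjusted p = 0.0355 and 0.00867). At 6 weeks Kit and Mrgprb2 passed neither threshold (0.78-fold and 0.82-fold, adjusted p = 0.148 and 0.226). Cpa3, Cma1, Tpsb2, Tpsab1, Fcer1a and Mrgprb1 of the 6-week mice did not overlap the 4-week bleomycin mice (5.77% of all genes lay apart and lower), and at 10 weeks Ms4a2 joined them (5.25%). Cpa3 fell back to 729 to 1121 (median 875) normalized counts at 6 weeks and 589.7 to 1048 (median 731) at 10 weeks. Fcer1a fell to 22.4 to 33.7 (median 25.2) and 11.5 to 26.7 (median 21.3), log2 changes of -1.94 ± 0.35 and -2.42 ± 0.32 (adjusted p = 4.60e-05 and 9.55e-08). Both genes were thus lower in every recovered mouse than in every mouse at 4 weeks of bleomycin.

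Against saline, 5 members were still higher after 6 weeks of recovery, namely Ms4a2, Fcer1a, Mcpt4, Cma1 and Mrgprb1, where 3.33% of all genes were. The median log2 fold change of the 10 members was 0.68. Fcer1a was 4.09-fold higher (adjusted p = 0.000148) and Ms4a2, at 59.1 to 112 (median 70.4) normalized counts, was 1.78-fold higher (adjusted p = 0.00249). For both IgE receptor chains all 6 mice lay above all 10 saline mice, and 1.41% of all genes lay apart and higher. The chymases Mcpt4 at 1259.6 to 2049.7 (median 1451) and Cma1 at 680.1 to 987 (median 809) overlapped saline and were 1.64-fold and 1.61-fold higher (adjusted p = 0.00404 and 0.00156). Mrgprb1 was 1.59-fold higher (adjusted p = 0.0172), a call that was lost without saline mouse 1, with a log2 fold change of 0.57, or without mouse 5 of the recovery group, with 0.63. Cpa3 had a log2 fold change of 0.52 ± 0.14 (adjusted p = 0.016) and stayed below the fold threshold.

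After 10 weeks of recovery Fcer1a and Tpsab1 were the members called higher than saline, where 2.05% of all genes were. Fcer1a was 2.93-fold higher (adjusted p = 0.00231), with 6 of 8 mice above every saline mouse. Tpsab1, at 2.61 to 15.3 (median 6.22) normalized counts or 3 to 18 reads, was 2.24-fold higher (adjusted p = 0.0295). The Tpsab1 call was lost when any 1 of 4 mice was left out and with no filter on low values, a pseudocount of 5, only the groups compared or edgeR on the recovered reads. Ms4a2 had a log2 fold change of 0.54 ± 0.17 (adjusted p = 0.0479, below the fold threshold), and the other members were not called. Between the recovery times limma called 0 of the 10 members, with 0 at an unadjusted p-value below 0.05 and 0 called by edgeR or DESeq2, and 0.088% of all genes were called. The intervals were wide, and for Fcer1a the log2 difference of 10 from 6 weeks ran from -1.22 to 0.26.

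To see whether the members rose in step, each was set against Cpa3 of the same mouse, as the difference of log2(normalized count + 1). Group differences from saline were tested by two-sided permutation, exact for the recovery groups and with 100000 resamples for the others, and p-values were adjusted over the 36 tests, of which 17 were below 0.05. These tests were chosen after the values had been seen. Relative to Cpa3, Fcer1a was higher in all 4 groups. Its mean log2 ratio was -6.55 ± 1.09 in saline, -4.40 ± 0.52 at 2 weeks and -3.80 ± 0.28 at 4 weeks of bleomycin (SD, n = 10 each, permutation test, adjusted p = 0.00018 at both times, the raw p being the smallest the resamples can give). At 6 and 10 weeks of recovery it was still -5.03 ± 0.15 (n = 6, exact permutation test, adjusted p = 0.00981) and -5.30 ± 0.32 (n = 8, exact permutation test, adjusted p = 0.00448). The 6-week mice all lay above all saline mice in this ratio, as did 5 of 8 mice at 10 weeks. Tpsab1 was higher relative to Cpa3 by 1.59 on the log2 scale at 2 weeks and 1.86 at 4 weeks (permutation test, adjusted p = 0.00479 and 0.00024), on few reads.

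Ms4a2, the beta chain, was higher relative to Cpa3 by 0.43 on the log2 scale at 2 weeks and 0.34 at 4 weeks (permutation test, adjusted p = 0.00192 and 0.0237), the latter no longer passing with a pseudocount of 5. The chymase Cma1 was higher by 0.33 and 0.37 (permutation test, adjusted p = 0.0206 and 0.0013), whereas Mcpt4 differed by -0.10 and 0.01 at these times and did not pass. In the other direction, Mrgprb2 was lower relative to Cpa3, with log2 differences of -0.53 at 2 weeks and -0.48 at 4 weeks (permutation test, adjusted p = 0.00226 and 0.0013), with 8 and 7 of 10 mice below every saline mouse. At 6 and 10 weeks of recovery its differences were -0.06 and -0.07 and did not pass. Kit was also lower relative to Cpa3, with log2 differences of -1.18 at 2 weeks and -0.76 at 4 weeks (permutation test, adjusted p = 0.0023 and 0.0145). Mrgprb1 differed from its saline ratio by -0.07 to 0.16 and passed in no group. At 6 weeks of recovery the ratios of Cma1 and Mcpt4 to Cpa3 were above saline by 0.17 and 0.20 (exact permutation test, adjusted p = 0.0377 and 0.0345). Tpsb2 differed from its saline ratio by 0.25 at 4 weeks (permutation test, adjusted p = 0.0463, lost with a pseudocount of 5) and passed at no other time. In 42 mice the ratios of Cma1 and Tpsb2 also passed at 10 weeks of recovery, with log2 differences of 0.13 and 0.16.

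**Figure D3:**
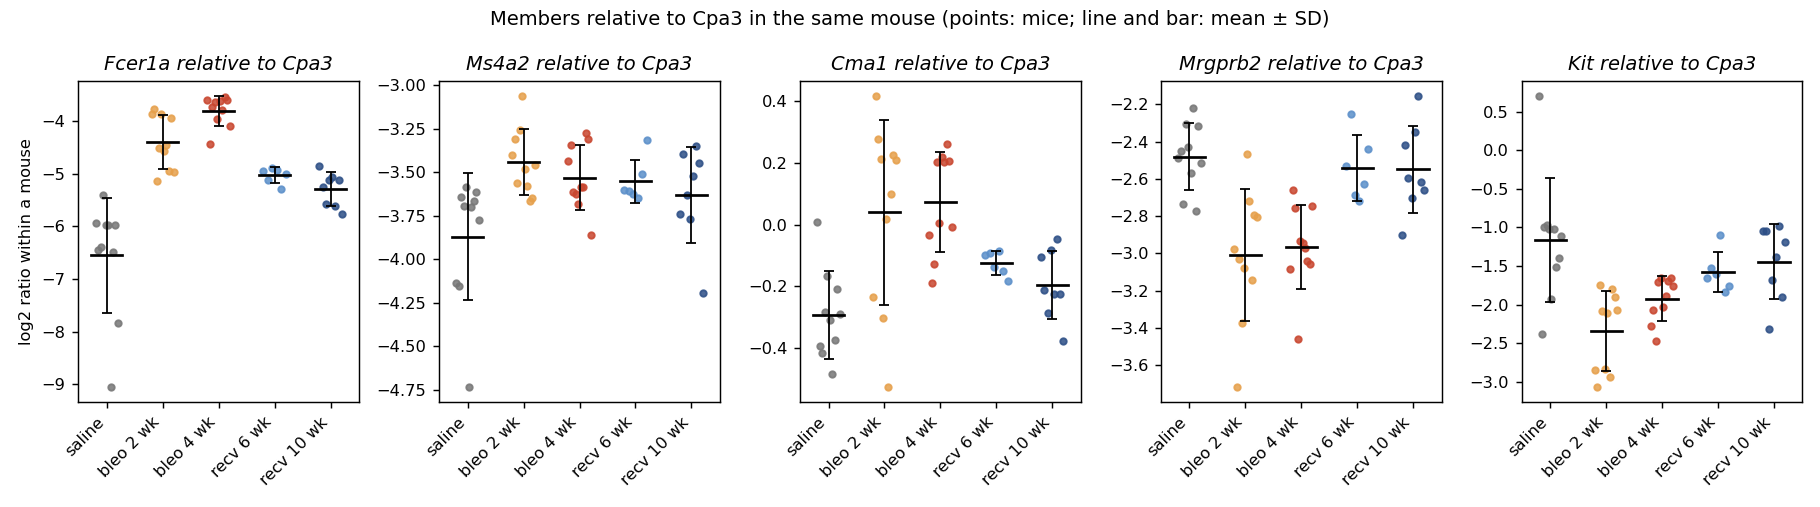
Log2 ratio of 5 members to Cpa3 within each mouse (y axis, differing between panels) by group (x axis), with a point for each mouse and the mean ± SD. Fcer1a, Ms4a2 and Cma1 lie higher with bleomycin and Mrgprb2 and Kit lie lower, and the single Kit point above 0 is saline mouse 1.

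Mice of the same group also differed from each other in their mast cell genes. With group means taken off, the 45 pairs of members had Pearson correlations from -0.33 to 0.93 over the 44 mice, with a median of 0.32 (0.38 in 42 mice and a Spearman median of 0.38). These are descriptions, since all values of a mouse come from 1 library. The chymases and Tpsb2 varied together most closely, with r = 0.93 for Cma1 and Mcpt4, 0.92 for Cma1 and Tpsb2 and 0.89 for Mcpt4 and Tpsb2. Mrgprb1 and Mrgprb2 made another close pair (r = 0.72, and 0.55 in 42 mice). Their correlations with Tpsb2 were 0.23 and 0.16, and 0.46 and 0.27 in 42 mice, beside 0.67 and 0.68 with Cpa3. Ms4a2 followed Cpa3 at r = 0.72. Tpsab1, which rests on few reads, had a median r of 0.16 with the other members. Kit had a median r of -0.05 (-0.07 in 42 mice), but its single values rested on the mice left out. Its r with Cpa3 was -0.33 in 44 mice and -0.16 in 42, and with Tpsb2 it was 0.09 and 0.39. The lowest value in 42 mice was with Mrgprb2, at -0.41.

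**Figure D4:**
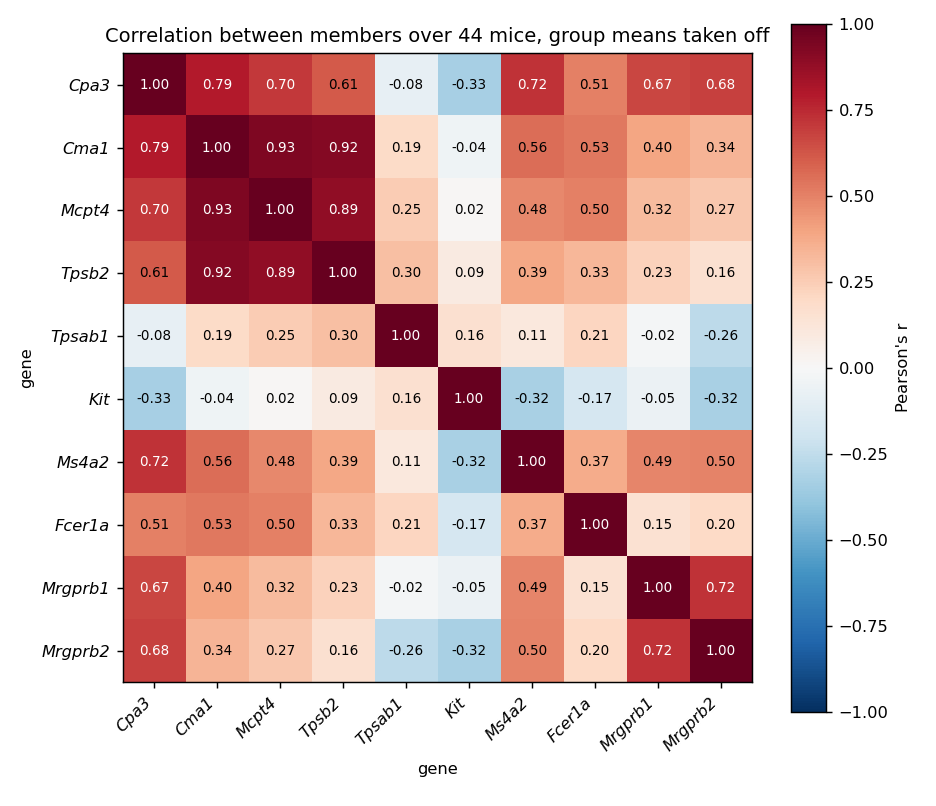
Pearson correlation of each pair of members (both axes) over 44 mice after group means were taken off log2(normalized count + 1), on a colour scale from -1 to 1. Cma1, Mcpt4 and Tpsb2 form a block from 0.89 to 0.93, Mrgprb1 and Mrgprb2 stand at 0.72, and the Kit row holds values from -0.33 to 0.16.

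Among all genes that are not members, the 10 whose within-group variation was most like the mean of the members were ranked by Pearson correlation over the 44 mice. Slc18a2, which loads histamine and serotonin into granules, came first (r = 0.75), and Cyp11a1, a steroid-producing enzyme, was second (r = 0.71). They were followed by the transcription factor Gata2 and the interleukin-33 receptor Il1rl1 (r = 0.68 each), Trim47 and Gimap6 (r = 0.64 each), Fbxw2 (r = 0.63) and the serotonin-forming enzyme Tph1 (r = 0.62). The histamine-forming enzyme Hdc and Sh2d3c closed the list (r = 0.61 each). Of these 10 genes, 5 were also on the lists of mast cell genes used below. In 42 mice Slc18a2, Cyp11a1, Gata2, Il1rl1 and Hdc remained among the first 10, while Trim47, Gimap6, Fbxw2, Sh2d3c and Tph1 ranked between 15 and 27.

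Of 6 genes for granule amines and proteoglycan 4 rose at 2 weeks (Srgn, Ctsc, Tph1 and Hdc) and 4 at 4 weeks (Srgn, Tph1, Hdc and Slc18a2), 2 remained higher at 6 weeks of recovery (Tph1 and Hdc) and 0 at 10 weeks. Their median log2 fold changes were 0.85, 0.97, 0.32 and 0.12. Beside these counts, 9.3%, 10.5%, 3.33% and 2.05% of all genes rose in the same comparisons. These genes differed in how closely they followed the mean of the members within groups. Over the 44 mice r was 0.75 for Slc18a2, 0.62 for Tph1, 0.61 for Hdc, 0.44 for Srgn, 0.23 for Ndst2 and -0.02 for Ctsc. The part of cells other than mast cells in this list was not tested. Hdc ranged over 19.1 to 54.9 (median 44.6) normalized counts in saline, 95.1 to 419 (median 219) at 2 weeks and 149.5 to 361 (median 213) at 4 weeks. No bleomycin mouse overlapped saline for Hdc, which rose 4.98-fold and 5.01-fold (adjusted p = 1.67e-13 and 1.66e-13) and differed by 0.01 on the log2 scale between these times. Tph1 ranged over 2.38 to 20.5 (median 11.4) in saline, 12.6 to 40.9 (median 22.2) at 2 weeks and 49.8 to 83.4 (median 61.2) at 4 weeks. It was 2.77-fold higher at 4 than at 2 weeks (adjusted p = 0.000387), and every 4-week mouse lay above every mouse at 2 weeks (0.106% of all genes). Of the 2 other mast cell proteases that could be tested, Tpsg1 and Ctsg both rose at 4 weeks and 0 rose at 2 weeks. Tpsg1, the membrane-anchored tryptase, was 1.87-fold and 1.64-fold higher than saline at 6 and 10 weeks of recovery (limma, adjusted p = 0.00089 and 0.00551). It ranged over 39.4 to 59.7 normalized counts at 4 weeks of bleomycin and 52.5 to 66.4 at 6 weeks of recovery. Unlike most members, it was not called lower in either recovery group than at 4 weeks of bleomycin.

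Of 11 growth and lineage genes tested, 2 rose at 2 weeks (Il33 and Gata2), 4 at 4 weeks (also Il1rl1 and Tal1), 2 at 6 weeks of recovery (Il33 and Tal1) and 1 at 10 weeks (Il33). Over all genes tested, 9.3% and 10.5% rose at these bleomycin times and 3.33% and 2.05% at these recovery times. Gata2 ranged over 65.6 to 162 (median 115) normalized counts in saline and 136 to 301 (median 202) at 4 weeks, a 1.83-fold rise (adjusted p = 2.60e-05). Il33, an alarmin of epithelial and stromal cells that activates mast cells, was 1.62-fold higher at 4 weeks of bleomycin and 2.03-fold higher at 6 weeks of recovery (adjusted p = 0.000505 and 0.00025). Kitl, the ligand of Kit, was not called against saline in any group, with log2 fold changes from -0.25 to 0.18. The IgE receptor signalling genes rose with bleomycin in 9 of 13 cases at 2 weeks and 7 of 13 at 4 weeks, and in 0 at either recovery time. Their median log2 fold change was 0.95 at 2 weeks and 0.79 at 4 weeks. Members had medians of 0.86 and 1.37, and macrophage and monocyte markers, described below, had 1.32 and 1.095. The part of cells other than mast cells in this list was not tested. Fcer1g, the gamma chain that other myeloid cells share, was 3.28-fold higher at 2 weeks and 2.25-fold at 4 weeks (adjusted p = 6.47e-09 and 1.30e-05) and 1.02-fold its saline level at 6 weeks of recovery, where it was not called. Of 7 lipid mediator genes 3 rose at 2 weeks (Ptgs2, Ltc4s and Alox5ap) and 2 at 4 weeks (Ltc4s and Alox5ap), and of 5 other surface genes 1 (Cd200r3) and 2 (Cd200r3 and Siglece) did. Neither list had a gene called at a recovery time against saline.

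Markers of other cells of the skin were set beside the members. Over all genes tested, 9.3% rose at 2 weeks and 10.5% at 4 weeks of bleomycin, and 7.43% and 7.37% fell. A count of 0 or 1 in such short lists was not read as a change of that cell type. Basophils carry Fcer1a, Ms4a2, Hdc and Cd200r3 as well, and of 6 basophil markers 3 rose at both 2 and 4 weeks (Mcpt8, Cd200r3 and Prss34) and 0 at either recovery time. Mcpt8, the defining basophil protease, ranged over 0 to 4.85 (median 0) normalized counts in saline, 8.03 to 133 (median 24.0) at 2 weeks and 1.96 to 31.1 (median 13.8) at 4 weeks. In recovery Mcpt8 was at or near 0, at 0 to 2.4 (median 0) at 6 weeks and 0 to 0.891 (median 0) at 10 weeks. Summed basophil markers ranged from 142 to 260 in saline, 236 to 635 at 2 weeks, 211 to 345 at 4 weeks, 157 to 213 at 6 weeks and 162 to 199 at 10 weeks of recovery. Much of these sums was Il3ra, which was not called against saline in any group. Saline mouse 1 held 117 for Il3ra and 0 for Mcpt8 and Prss34. The mouse with the sum of 635 held 350 for Il3ra and 133 for Mcpt8. Of 7 macrophage and monocyte markers 5 rose at both bleomycin times, and their summed counts ranged from 3654 to 10193 in saline, 10599 to 28121 at 2 weeks and 7684 to 18982 at 4 weeks. Of 5 neutrophil markers 5 rose at 2 weeks and 3 at 4 weeks, of 6 T cell markers 3 and 1 did, and of 4 eosinophil markers 1 (Prg2) and 0 did, with Ear2 lower at both times. Of 5 fat cell markers 2 and 3 fell, of 8 keratinocyte and fibroblast markers 2 (Col1a1 and Col1a2) and 0 fell, and of 6 muscle markers 0 and 1 (Pvalb) fell. The part of basophils and of these other cells in the changes of the members was not tested at any time.

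**Figure D5:**
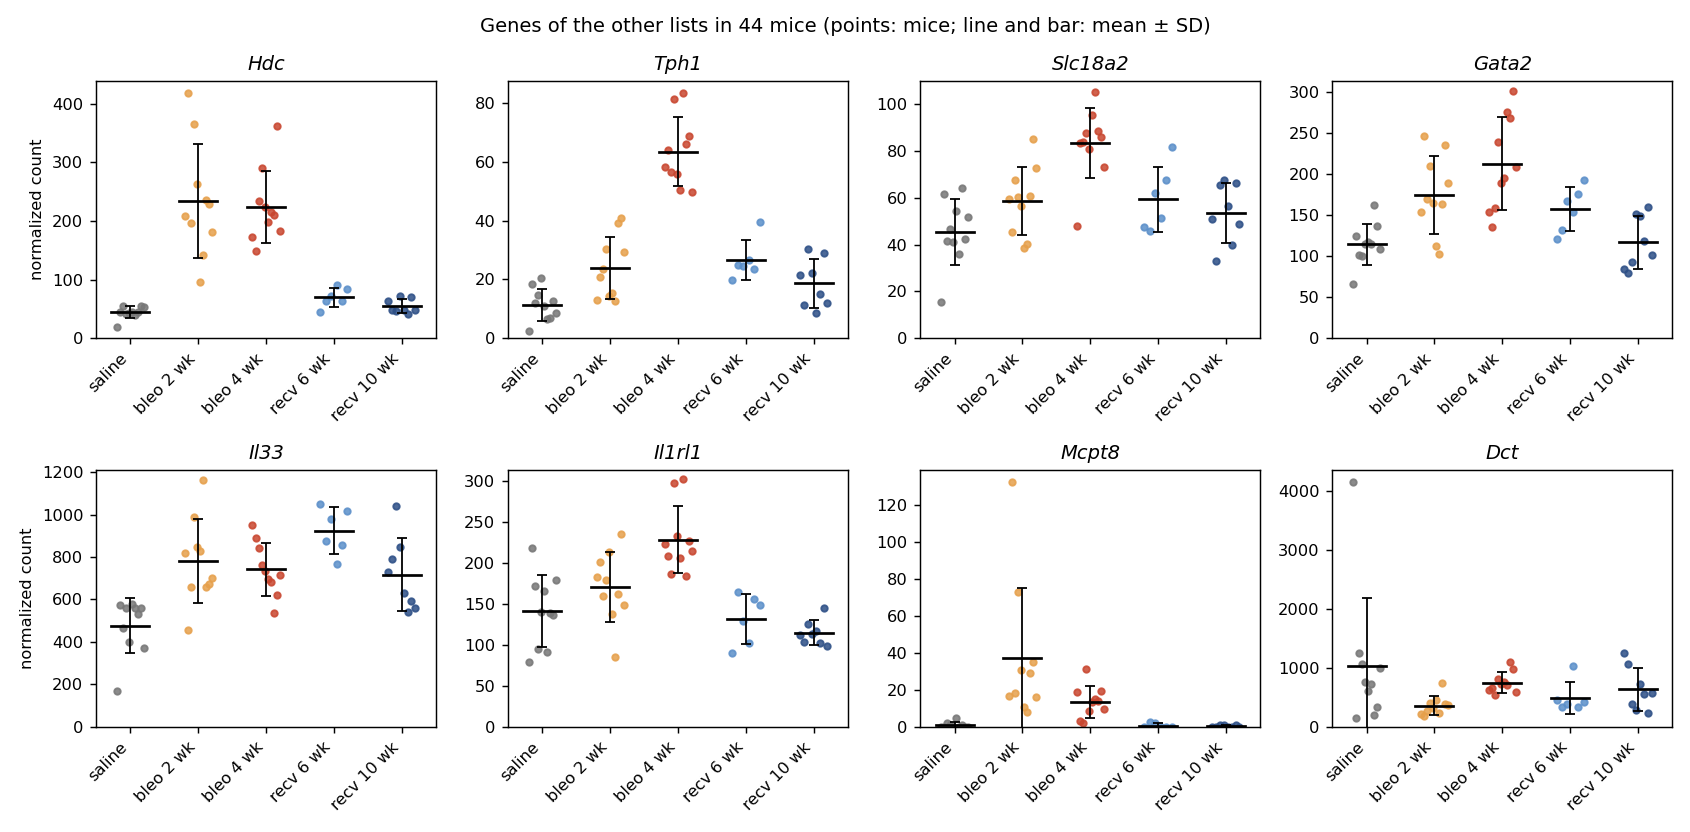
Normalized count (y axis, linear, from 0) of 8 genes from the other lists in the 5 groups (x axis), with a point for each mouse and the mean ± SD. Hdc is high at both bleomycin times, Tph1 is highest at 4 weeks, Mcpt8 is near 0 outside bleomycin, and the highest Dct point, a melanocyte marker, is saline mouse 1 at 4139.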

How the data were processed

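RNA of 44 mouse skin samples was sequenced by the authors from TruSeq stranded mRNA libraries as paired-end reads, aligned to mm10 with STAR 2.4.0 and normalized with DESeq2 1.12.3. Which tool counted the reads, whether it used strand and with which gene models is not given in the sources used here, so overlapping genes and close paralogs are uncertain. The deposited signal is the read count of a gene divided by 1 size factor per mouse, and 0 columns of samples were left unused. Whole reads were recovered by dividing each value by what 1 read is worth in its mouse: 100% of values up to 2000 reads came out whole within 0.01. Symbols were matched for 42929 of 43411 identifiers, and gene lengths and positions come from GENCODE on GRCm38. Groups follow the labels, and mice of 1 group are separate animals.

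Differences were tested with limma 3.58.1 in R 4.3.3 with a mean-variance trend on log2(normalized count + 1), in 1 fit of all 44 mice over the 17037 genes with a mean normalized count above 3. A gene was called at a fold change above 1.5 and a Benjamini-Hochberg adjusted p-value below 0.05. The scripts were tested on simulated data with known changes. Since the deposited values are not counts, edgeR 4.0.16 (quasi-likelihood) and DESeq2 1.42.0 on the recovered reads served as alternatives (edgeR called 2922 genes at 2 weeks and 3136 at 4 weeks of bleomycin against saline, beside 2851 and 3053 with limma), along with other filters, pseudocounts, normalizations, sets of mice and the replicate number as a block. Leaving out each of the 44 mice in turn and all ratios to Cpa3 were added after the data had been seen. Summaries were made in Python 3.11.15 (pandas 2.3.3, numpy 2.4.6) and plots with matplotlib 3.10.9. Permutation tests were written with numpy, and their p-values were adjusted with scipy 1.17.1.

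All members are named, and of the other lists a gene could be named if it passed both thresholds in any comparison, which not all such genes were, plus the 10 genes most like the mean of the members. Gm48934, Kitl, Cma2, Il3ra, Mcpt1, Mcpt2, Mcpt9 and Ms4a4b fall outside this rule and were named after their values had been seen. The members and lists were chosen with earlier results of these data known. A floor of 3 reads was used for detection, and sequencing batches are not given in the labels.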

Additional observations from a re-analysis of the deposited data

Results flagged for a closer look

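Each member was examined in each group for a mouse far from the others, by setting the gap to the nearest mouse against the range of the group. Of the 50 combinations 4 stood out, where chance alone gives about 1 in 20. Saline mouse 1 was far below the other saline mice for Ms4a2, at 19.1 normalized counts, and for Mrgprb1, at 57.2 normalized counts. The same mouse had the lowest Cpa3 (352), Cma1 (354), Mcpt4 (637), Tpsb2 (247) and Mrgprb2 (62.0) of its group and the highest Kit (576). Mouse 2 of the 2-week bleomycin group was far below its group for Mrgprb1, at 85.8 normalized counts. It also had the lowest Kit (129) and Mrgprb2 (81.9) and the highest Tpsb2 (947) of that group. Mouse 7 of the 2-week bleomycin group was far below its group for Tpsab1, at 5.73 normalized counts, and had the lowest Tpsb2 (323) and Mcpt4 (979).

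The change against saline differed between 2 and 4 weeks of bleomycin for 2 members, by the direct comparison of the bleomycin groups. The difference was 0.62 on the log2 scale for Tpsb2 (limma, adjusted p = 0.0141) and 0.77 for Kit (limma, adjusted p = 0.00248), with the 4-week group higher for both. The saline mice enter both changes and do not affect this difference other than through the shared estimate of spread.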

How the results depend on the processing

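The number of members called was within 1.5 times the value reported in every comparison under every alternative, with these exceptions. Against saline at 10 weeks of recovery the number was 1 with no filter on low values, with a pseudocount of 5, with only the groups compared and with edgeR, and it ranged from 1 to 3 when each mouse was left out. Between 4 and 2 weeks of bleomycin it ranged from 1 to 3 when each mouse was left out. Single members turned in direction where their change was near 0. Kit at 10 weeks of recovery against saline was -0.0458 with edgeR, -0.0441 with DESeq2 and between -0.0648 and 0.13 when mice were left out, and Tpsb2 between the recovery times was between -0.126 and 0.0146. The log2 ratio to Cpa3 turned for Tpsab1 at 6 weeks of recovery with a pseudocount of 5 (-0.0985) and for Mrgprb1 at 2 weeks of bleomycin in 42 mice (0.0338). Calls rested on single mice for Tpsb2 between the bleomycin groups (2-week mice 6 and 7 and 4-week mice 4 and 7, 0.53 to 0.58 without them), Tpsab1 at 10 weeks of recovery (saline mice 6 and 7 and recovery mice 5 and 7, 0.97 to 1.08), Mrgprb1 at 6 weeks against saline (saline mouse 1 and recovery mouse 5, 0.57 and 0.63) and Mrgprb1 at 6 weeks against 4 weeks of bleomycin (bleomycin mice 2, 3 and 7 and recovery mice 1 and 2, -0.58 to -0.52). Ms4a2 at 10 weeks was called without recovery mouse 8 (0.63), Mcpt4 at 6 weeks against 4 weeks of bleomycin without recovery mouse 6 (-0.61), and Fcer1a between the bleomycin groups without saline mouse 1, 6, 7 or 10, 2-week mouse 1, 5 or 9 or 4-week mouse 2 (0.95 to 1.045). The causes were not tested. Replicate numbers are shared between groups but mark different animals: deviations of the 78 same-numbered pairs correlated at a mean r of -0.0017 (-0.69 to 0.38), 18 were above 0.1, and 4 of 44 mice correlated best with their own number. With the replicate block 6 members were lower at 6 weeks of recovery than at 4 weeks of bleomycin, since Mrgprb1 was at -0.52, and no other call changed. Over all genes, the number called between the recovery times was 15 and rose to 56 with only the groups compared, 58 in 42 mice and 63 with DESeq2, and that at 10 weeks of recovery against saline went from 519 to 326 with only the groups compared. Without a fold threshold the numbers against saline were 6063, 6242, 1547 and 994 at 2 and 4 weeks of bleomycin and 6 and 10 weeks of recovery, 956 between the bleomycin groups, and 4260 and 5576 at 6 and 10 weeks of recovery against 4 weeks of bleomycin. Depth limits Tpsab1 and Fcer1a most, whose saline mice held at most 5 and 11 reads.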

Other observations

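Proteases of mucosal mast cells, a subset that is scarce in resting skin, were present at a few reads. Mcpt1 was at 0 in 8 of 10 saline mice, with at most 2 reads, in 2 of 10 mice at 2 weeks of bleomycin, with up to 20 reads, and in 3 of 10 mice at 4 weeks, with up to 6 reads. At 6 weeks of recovery 6 of 6 mice were at 0, and at 10 weeks 7 of 8. Mcpt2 was at 0 in all 10 saline mice, and reached 10 reads at 2 weeks and 5 reads at 4 weeks of bleomycin, with 4 and 2 of 10 mice at 0. Both genes were below the minimum for testing, and these values are close to the floor of 3 reads in most mice.

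Fat cell and muscle markers did not rise with the members at 4 weeks of bleomycin, where 3 of 5 and 1 of 6 fell (7.37% of all genes). Over the 44 mice with group means taken off, the mean of the muscle markers nevertheless correlated with Mrgprb1 at r = 0.57 and Mrgprb2 at r = 0.59 (0.37 and 0.41 in 42 mice), and with Tpsb2 at r = 0.11. The mean of the IgE receptor signalling genes showed the opposite order, with r = 0.64 for Tpsb2 and 0.60 for Mcpt4 beside -0.16 for Mrgprb1 and -0.26 for Mrgprb2 (0.56, 0.53, -0.08 and -0.34 in 42 mice). For Kit the same r was -0.02 in 44 mice and 0.53 in 42 mice, so it rested on the mice left out. These correlations describe libraries that share depth and composition and carry no test.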
